A study of Drosophila melanogaster with 2 samples.

Results

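Meics (Meiotic central spindle) of Drosophila melanogaster belongs to the zinc finger proteins and was first described on the spindle of meiotic spermatocytes. Chromatin immunoprecipitation and sequencing (ChIP-seq) maps the DNA that is crosslinked to a protein, here a fusion of Meics with green fluorescent protein (GFP) pulled down with an antibody against GFP. The samples were whole embryos of mixed sex, collected from 0 to 24 h, of a transgenic line that stably expresses Meics with GFP at its C terminus. They form 1 group of 2 biological replicates, numbered 1 and 3, and there is no second condition. Both carry the same fusion, no control library was analysed here, and no source used here says which promoter drives the fusion or which cells express it. In whole embryos, weak binding in many cells and strong binding in a few cannot be told apart.

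The regions described here are those that lie just below the set that passed the irreproducible discovery rate (IDR), a procedure that keeps peaks whose ranks agree between replicates. The deposited pooled list, made from both replicates together, holds 30000 regions, and the deposited IDR set is its 7689 highest. The weaker regions were chosen by the authors' signal value and by overlap: pooled ranks 7690 to 15000, kept only where a region among the 15000 highest of each replicate list overlapped by at least 1 bp. Of the 7311 rows in that range, 4346 (59.4%) were kept, which is 14.5% of the pooled list. The range rows overlapped the list of replicate 1 in 5404 cases (73.9%) and that of replicate 3 in 6049 (82.7%). A further 1058 rows were matched in replicate 1 only, 1703 in replicate 3 only and 204 in neither, which leaves 2965 rows of the same ranks that were not kept. Signal and replicate ranks chose the regions and are given as description.

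The signal values of the 4346 regions ran from 75.35 to 144.4 with a median of 111.1, against a median of 262 in the IDR set and 86.92 in the rows not kept. The deposited q-values were at or under 0.05 in 4109 regions (94.5%) and at or under 0.01 in 2330 (53.6%), and at or under 0.01 in every IDR peak. No region ranked below 15000 had a q-value at or under 0.05. The first region inside the range lay 130 bp upstream of mei-W68, the fly counterpart of the Spo11 enzyme that makes meiotic DNA breaks, with a signal of 144.4 at rank 7690. The last IDR peak, at rank 7689 with the same rounded signal, lay 107 bp upstream of CDK2AP1. At the other end, the last region kept lay in an intron near pcs, at rank 14996 with a signal of 75.35. Rank 15000, 49 bp downstream of the start of Adgf-A, was matched in replicate 3 but not in replicate 1, and rank 15001 lay in an intron of aop.

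A promoter is the stretch around a transcription start site (TSS) where general factors and RNA polymerase assemble. In flies, distinct sequence elements mark promoters of broadly used and of regulated genes, among them the DRE (bound by Dref), the motif 1 element (bound by M1BP), the TATA box and the core promoter motifs 6 and 7. Sites of insulator proteins such as CTCF and BEAF-32 often lie close to starts. Introns and intergenic DNA hold most developmental enhancers.

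Strong regions of each kind are shown first, each as 101 bases of dm6 centred on the summit and read on the plus strand. Capitals mark runs of 6 or more A or T, since base composition at the summit differs between the sets compared below. The promoter region lies 71 bp upstream of chm, an acetyltransferase gene (2L:7412296-7412396, rank 7700). The intronic one lies in CG32694 (X:9993568-9993668, rank 7692). The intergenic one has Thor, which encodes the translation inhibitor 4E-BP, as its nearest gene (2L:3480003-3480103, rank 7691). The region in an intron of wtrw stands 207 bp from an IDR summit (3R:7892925-7893025, rank 7704).
chm: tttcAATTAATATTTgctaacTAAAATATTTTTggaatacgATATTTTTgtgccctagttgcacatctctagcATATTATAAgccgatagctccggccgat
CG32694: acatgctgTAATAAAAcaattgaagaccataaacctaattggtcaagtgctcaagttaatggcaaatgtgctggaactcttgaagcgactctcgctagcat
Thor: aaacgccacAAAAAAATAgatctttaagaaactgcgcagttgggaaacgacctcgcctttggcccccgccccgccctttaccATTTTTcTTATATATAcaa
wtrw: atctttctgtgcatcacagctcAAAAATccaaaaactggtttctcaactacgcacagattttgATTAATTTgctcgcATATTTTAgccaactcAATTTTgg
They hold 33.7%, 39.6%, 44.6% and 35.6% GC in this order, and each has at least 1 such run.

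Of the regions, 19.0% were on X, which makes up 17.6% of the length of the 6 arms. Chromosome 4 held 17 regions (0.391%) on 1.01% of the length, and 0.273% of the IDR peaks. Nearly all had the most common width of 460 bp (4278, 98.4%), against 58.5% of the IDR peaks. Only 15 summits (0.345%) were in annotated transposons, which cover 5.93% of these arms; the IDR peaks had 0.26% there.

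The set held 2 kinds of region. Values below cover both kinds together unless 1 kind is named. A summit within 500 bp of an IDR summit was found for 821 regions (18.9%), called adjacent regions here, and the other 3525 are called separate regions. Only 13 of the rows not kept (0.438%) were adjacent, so the overlap rule kept 821 of the 834 adjacent rows of the range (98.4%). In 810 regions the best match in both replicate lists was itself a region that overlapped an IDR peak. Of the 3525 separate regions, 3514 (99.7%) had matches in both lists that overlapped no IDR peak. Members can also share a match with each other: 616 regions (14.2%) had the same best match in replicate 1 as another of the set.

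Adjacent regions lay almost all on 1 side of their IDR summit. In genome coordinates, 794 of the 821 (96.7%, Wilson 95% interval 95.3 to 97.7) were at higher coordinates, at a median of 204 bp and never nearer than 199 bp. Between 500 and 2000 bp from the nearest IDR summit, 523 of 1073 regions (48.7%, 45.8 to 51.7) lay on that side. The same side was taken by 781 of 792 adjacent regions ranked below 15000 (98.6%), and by 656 of 694 IDR peaks whose nearest IDR summit within 500 bp was a stronger one (94.5%). The source of the one-sided spacing was not tested.

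**Figure D1:**
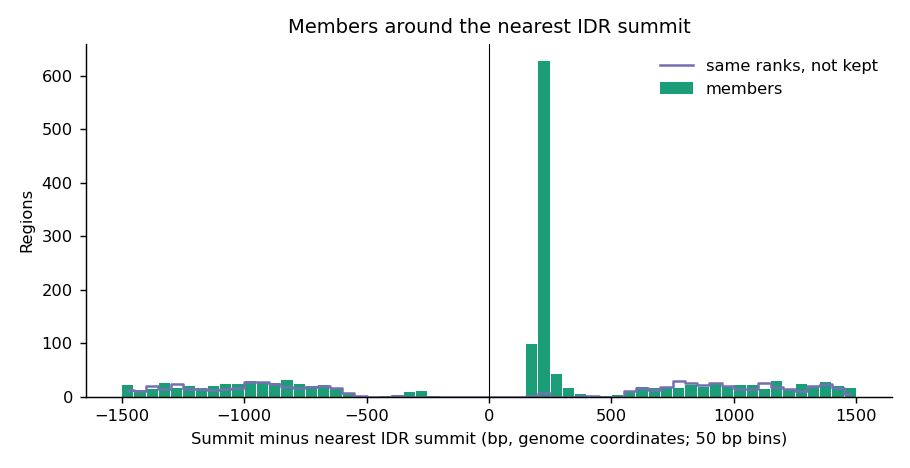
Number of regions per 50 bp bin of the distance from the nearest IDR summit, in genome coordinates, for the 4346 weaker regions (bars) and the 2965 rows of the same ranks that were not kept (line). One narrow column of bars stands on the side of higher coordinates, where 794 of the 821 adjacent regions lie at a median of 204 bp; the line has no such column.

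The 2 kinds also had different ranks in the replicate lists. Adjacent regions had a median best-match rank of 4450 in replicate 1 and 4417 in replicate 3, and 655 of them (79.8%) ranked within the 7689 highest of both lists. Separate regions had median ranks of 10248 and 10611, and 21 of them (0.596%) were within the 7689 highest of both. The 10 regions with the best worse-of-2 rank were all adjacent. At Ptp99A, a receptor tyrosine phosphatase, the match ranked 18 and 17 although the pooled row ranked 7803, 229 bp from an IDR summit. At BubR1, a spindle checkpoint kinase, the ranks were 19 and 20, with an IDR summit 262 bp away. The next were at chif, C1GalTA, Hr3, sbb, CG15545, Fhos, PGRP-SA and nrv1, all with an IDR summit between 199 and 232 bp away. Since the matched replicate region of 810 regions also overlapped an IDR peak, these ranks do not measure the weaker summit itself.

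**Figure D2:**
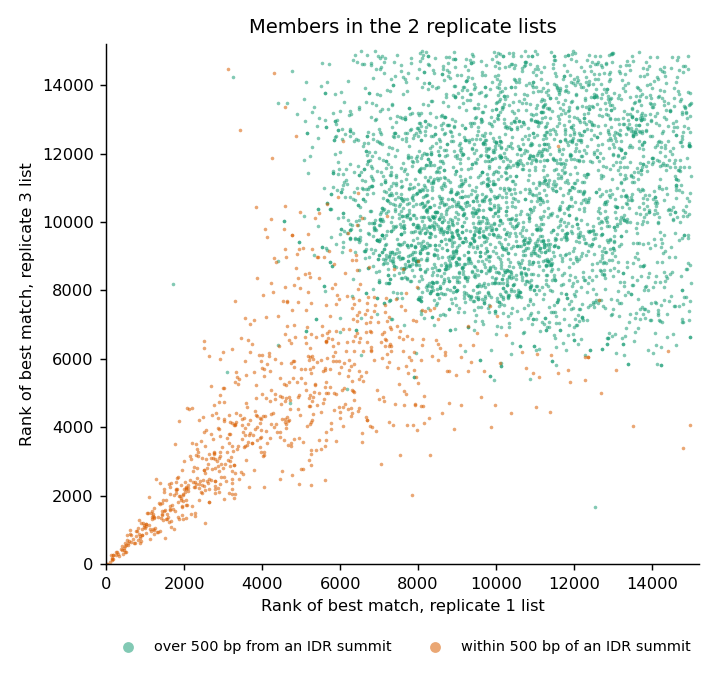
Rank of each region's best match in the list of replicate 1 (x) and of replicate 3 (y), with 1 point for each of the 4346 regions. Adjacent regions follow the diagonal from rank 18 and 17 upward, and separate regions form a cloud around the median ranks of 10248 and 10611.

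Of the 10 separate regions with the best worse-of-2 rank, picked after their values were seen, 6 were at promoters and 4 were not. A region between Pfdn6, a prefoldin subunit, and Su(z)12, a subunit of the Polycomb repressive complex that methylates histone H3, ranked 4717 in replicate 1 and 4710 in replicate 3, and its summit lay 32 bp upstream of Pfdn6 (3L:19923409-19923868, pooled rank 8116). A region 2 bp upstream of sdt, an apical polarity scaffold, ranked 3096 and 5615 although its pooled rank was 14939. The other promoter regions lay at SCCRO, at the segmentation gene hry (hairy), at kay (the fly Fos) and at Sxl, the switch gene of sex determination. The 4 away from coding starts were a pair in an intron of Rim2 and a pair near CG5953, 1 in a non-coding exon and 1 intergenic, and each pair shared its match in both replicate lists (ranks 6418 and 6850 for Rim2, 5115 and 6811 for CG5953).

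The weaker regions were less often at promoters than the IDR peaks. Their summits were within 500 bp of a coding TSS in 1255 of 4346 cases (28.9%, 27.5 to 30.2), against 3307 of 7689 IDR peaks (43.0%, 41.9 to 44.1). Introns held 45.4% of the weaker regions and 38.7% of the IDR peaks, and intergenic DNA 20.5% and 14.4%. Over 5000 bp from any annotated TSS lay 24.3% of the weaker regions and 15.7% of the IDR peaks. The smaller classes that were also more frequent among the weaker regions were 3′ untranslated regions (1.73% against 1.16%) and coding exons (0.621% against 0.338%).

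By Fisher's exact test, two-sided and adjusted over the 7 classes, the differences gave adjusted p = 2.82e-53 for promoters (14.1 points lower; difference -14.1, interval -15.9 to -12.4), 2.2e-12 for introns, 4.59e-17 for intergenic DNA, 0.0194 for 3′ untranslated regions and 0.0431 for coding exons. By the same exact test, the 5′ untranslated regions (0.92% against 0.611%, adjusted p = 0.0669) and non-coding exons (1.98% against 1.81%, adjusted p = 0.528) did not pass. Regions of 1 genome are not independent replicates, so these p-values describe the 2 lists. Without the adjacent regions the promoter share was 26.0%, and the coding exon difference no longer passed (adjusted p = 0.226, Fisher's exact test). In the replicates' own lists, with no overlap rule, the same ranks held 26.2% promoter summits in replicate 1 and 31.7% in replicate 3 (29.0% ± 3.90, SD, n = 2), and the 7689 highest held 43.1% and 44.4% (43.8% ± 0.929, n = 2). The lower share at the weaker ranks was thus found in each replicate, and the replicates differed more at these ranks than at the top.

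Set against rows of the same pooled ranks that were not kept, no class passed: promoters made up 28.9% and 28.4% (difference 0.445 points, interval -1.67 to 2.55, adjusted p = 0.808 by Fisher's exact test, and the smallest unadjusted p over the 7 classes was 0.0543). That near equality was the sum of unlike parts. Rows matched in replicate 1 only had 19.0% promoter summits (16.7 to 21.5, n = 1058 regions), and rows matched in replicate 3 only had 34.8% (32.6 to 37.1, n = 1703 regions). The regions found in both differed from each, by 9.88 points (adjusted p = 1.88e-10, Fisher's exact test) and by -5.94 points (adjusted p = 5.44e-05), a split made after the data were seen. The median pooled rank was 10158 in both, 13339 in replicate 1 only and 12565 in replicate 3 only, so these differences mix rank with list. In ranks 14088 to 15000 the promoter shares were 28.8%, 16.1% and 28.4% in that order. Introns showed the reverse order to promoters, with 53.2% in replicate 1 only, 45.4% in both and 40.8% in replicate 3 only. The mean GC content at the summit was 37.5% in rows of replicate 1 only and 40.2% in rows of replicate 3 only. Which property of the libraries goes with this was not tested.

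The promoter share of the weaker regions stayed within a narrow range over the ranks. Over 8 equal steps of the rank range it was 31.3%, 28.2%, 26.5%, 26.6%, 30.6%, 29.1%, 31.9% and 28.8%. Among rows not kept it ran from 64.5% (62 rows) in the first step to 22.3% (750 rows) in the last. Rows matched in replicate 3 only started at 67.3% (49 rows) and ended at 28.4%. In ranks 7690 to 11344 alone, the regions found in both lists had 13.7 points fewer promoter summits than the rows not kept (difference -13.7, adjusted p = 1.94e-10, Fisher's exact test), the opposite sign to the whole range.

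**Figure D3:**
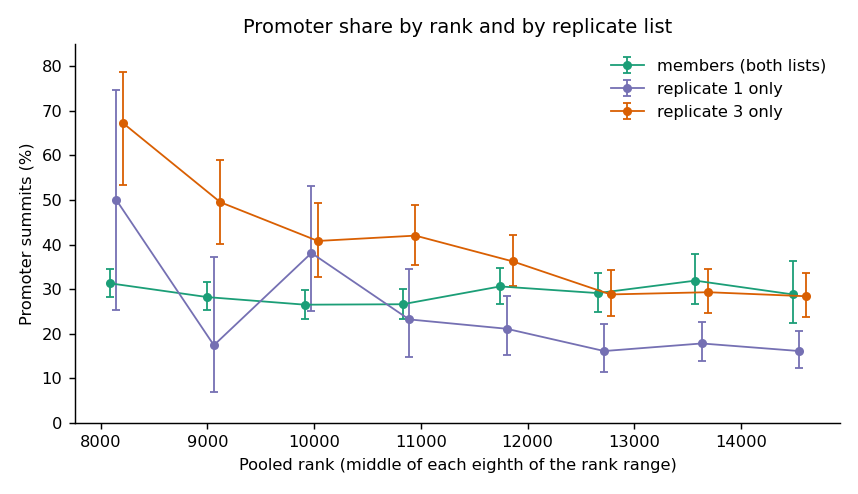
Share of summits within 500 bp of a coding TSS, with 95% Wilson intervals, in 8 equal steps of pooled rank from 7690 to 15000, for regions found in both replicate lists and rows found in 1. The regions found in both stay between 26.5% and 31.9%, while rows of replicate 3 only go from 67.3% to 28.4%.

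At promoters, the weaker summits lay upstream of the start less often than the IDR summits did. Of the 1251 promoter summits not exactly on a TSS, 63.1% (60.4 to 65.8) lay upstream, against 79.3% (77.9 to 80.7) of the 3300 in the IDR set, a difference of -16.2 points (p = 6.73e-28, Fisher's exact test). The median signed position was -51 bp (negative is upstream) against -103 bp in the IDR set, while the median distance from the start regardless of side was 134 bp against 126 bp. The share was 63.7% in the 339 adjacent and 62.9% in the 912 separate promoter summits. The difference was -8.83 points against the IDR peaks of lower signal, those from the median of 262 down. The replicates' own lists gave 62.3% ± 0.275 upstream at these ranks and 79.2% ± 2.19 at the highest ranks (SD, n = 2). Rows of the same ranks that were not kept had 60.9% upstream (p = 0.312, Fisher's exact test).

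**Figure D4:**
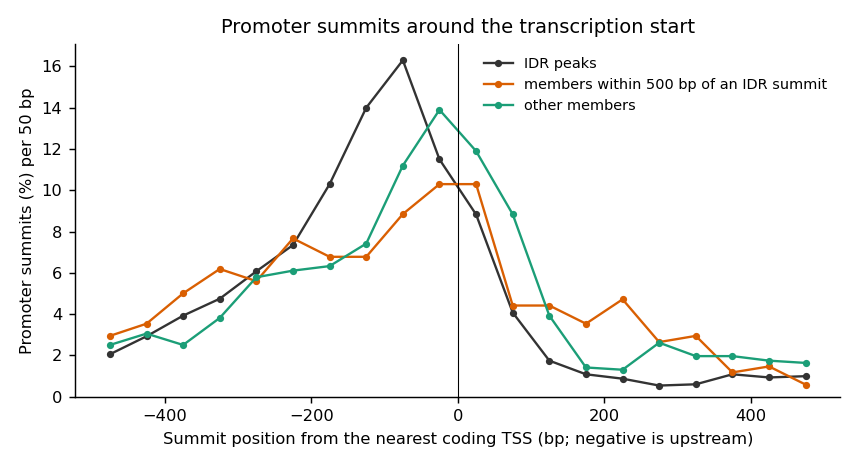
Share of promoter summits per 50 bp bin of position from the nearest coding TSS, for IDR peaks, adjacent regions and separate regions. The IDR peaks are highest 50 to 100 bp upstream, with 16.3% in that bin, and the separate regions are highest just upstream of the start, with 13.9% in the last 50 bp and 11.9% in the first 50 bp after it.

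Weaker regions reached coding genes with and without an IDR summit. Of 13945 coding genes, 3645 (26.1%) had an IDR summit within 500 bp of a TSS and 1357 (9.73%) had a weaker region there. Both were present at 567 of the 3645 genes with an IDR summit. That is a larger share than at genes without one, with no test, and adjacent regions are included. A weaker region and no IDR summit were found at 790 genes, which is 7.67% of the 10300 genes without an IDR summit. Gene counts below are read against that 7.67%. The IDR peaks alone thus reached 26.1% of coding genes, and both sets together 31.8%. Of the 1255 promoter regions, 543 (43.3%) lay at a gene that also had an IDR summit.

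Divergent genes, those with another coding start on the opposite strand within 500 bp upstream, held more of them. Among genes without an IDR summit, 236 of 2096 divergent genes (11.3%, 9.98 to 12.7) had a weaker region, against 554 of 8204 others (6.75%, 6.23 to 7.32), a difference of 4.51 points (p = 3.7e-11, Fisher's exact test). It was 4.57 points without the adjacent regions, 6.33 points in the list of replicate 1 alone and 9.46 points in that of replicate 3 alone. A summit in a shared upstream stretch can count for both genes of a pair, and 264 promoter regions (21.0%) were within 500 bp of more than 1 coding gene. The exact test treats such genes as independent, and no alternative counted each summit once. For genes on the X chromosome the share was 8.80% against 7.46% on the autosomes, a difference of 1.34 points that did not pass (p = 0.0667, Fisher's exact test), although it passed in the list of replicate 3 alone (2.80 points, p = 0.00602), in ranks 7690 to 11344 (1.54 points, p = 0.0187) and with a stricter overlap (1.47 points, p = 0.0405, all Fisher's exact test).

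The gene lists were counted with no test, each against the 7.67% of coding genes. Cytosolic ribosomal protein genes were nearly all in the IDR set (76 of 86), and 4 of the 10 left had a weaker region. RpS28a held one 65 bp upstream of its start with ranks 9853 and 8664, and RpL6, RpS3 and RpL40 held summits 9 to 134 bp downstream. The RpS28a region is also the one counted for Axn, the scaffold of the complex that destroys β-catenin in Wingless signalling, since the genes are divergent. Mitochondrial ribosomal protein genes had 3 of 37 (mRpL27, mRpL50 and mRpL12), close to the background. Respiratory chain genes had 7 of 62, among them SdhB and COX7C. The proteasome had 1 of 21 (Rpn9), and general transcription factors and RNA polymerase II subunits 1 of 22 (TfIIEalpha). Mediator, the complex that links activators to the polymerase, had 3 of 19, at MED28, MED23 and MED19.

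Signalling lists had shares above the 7.67%, on small counts. In the list for the Dpp pathway, the fly BMP pathway, 4 of 12 genes without an IDR summit had a weaker region. They were tkv, the type I receptor (summit 15 bp upstream, rank 9197), Dad, the inhibitory Smad (32 bp downstream, rank 8329), brk, the repressor of Dpp targets (492 bp upstream, rank 9753), and daw, an activin-like ligand (202 bp upstream, rank 11835). The brk region is an adjacent one, with an IDR summit 257 bp away and match ranks of 250 and 370. The other 3 are separate regions. Since daw is activin-like, the list is wider than the BMP branch. In the EGFR and Ras pathway 4 of 13 genes had one: vn, a neuregulin-like ligand, Dsor1, the fly MEK kinase, RasGAP1, which turns Ras off, and aop, an Ets-domain repressor. In the Wingless pathway 3 of 13 had one, at the receptor fz2, at Axn and at ebd1, and in the Notch pathway 2 of 16, at fng, the glycosyltransferase that modifies Notch, and at E(spl)mdelta-HLH, a target gene.

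Chromatin and cell cycle genes had counts of the same order. Of 18 Polycomb and Trithorax group genes without an IDR summit, 4 had a weaker region: Psc, a core Polycomb subunit, Su(z)12, trx, the founding Trithorax methyltransferase, and ash2. Of 13 genes for insulator and promoter factors, 4 had one, at the zinc finger genes pita and ken, and at Adf1 and grh. Replication and cell cycle genes had 5 of 28, with Mad1, a checkpoint protein, Mcm6 and Orc1, parts of the replication machinery, and stg, the Cdc25 phosphatase, among them. Of 16 central spindle and cytokinesis genes, the list nearest to the name of the tagged protein, 2 had one: zip, the non-muscle myosin heavy chain, 86 bp downstream of a start with rank 7698, and the kinesin Klp67A. In the nervous system list 4 of 28 had one (insc, unc-104, comm and Syt1), and in the muscle list 2 of 21 (Mhc and Act57B). Segmentation genes had 2 of 23, at hry and ci.

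Several lists had few or none. Chemoreceptor genes had 2 of 178 (Or88a and Gr77a, the first an adjacent region), cuticle protein genes 1 of 94 (Cpr65Av), and odorant-binding protein genes, antimicrobial peptide genes, testis-specific genes and chorion and yolk protein genes had none of 48, 20, 35 and 11. Hox genes had none of 6 and heat shock and chaperone genes none of 16. Over all genes, with or without an IDR summit, 5.67% of coding genes had a weaker region only. The Wilson upper limits of these lists were 7% (odorant-binding), 16.1% (antimicrobial), 8.97% (testis-specific), 25.9% (chorion and yolk), 32.4% (Hox) and 12.5% (heat shock). These limits lie above 5.67%, so on the basis of all genes the zeros do not set those lists apart. For lists that include genes with an IDR summit, no limits were computed on the basis of the 7.67%. On the basis of all genes, the upper limit of the chemoreceptor genes was 3.98%, below 5.67%, and that of the cuticle protein genes was 5.67%. The limit of the multi-copy histone genes was 3.35%, below the 5.14% of all annotated genes. Cytochrome P450 genes had 6 of 75 (8%), close to the background, including the neighbouring copies Cyp4p1 and Cyp4p2. Among tRNA genes 15 of 269 had one (5.58%), below the 6.61% of all annotated genes without an IDR summit. The other lists were translation factors (3 of 33), aminoacyl-tRNA synthetases (2 of 19), dorsoventral and early zygotic genes (3 of 27), ecdysone response genes (1 of 14), digestive enzymes and larval serum proteins (1 of 36), tubulins (1 of 7), golgins and GATOR subunits (1 of 14), histone variants and chaperones (0 of 8), snRNA genes (0 of 27) and multi-copy histone genes (0 of 111). The region at CG4238 lay 301 bp from the start of a tRNA for glutamine.

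The 5 strongest regions over 5000 bp from any TSS were 3 in introns and 2 between genes. The strongest of them was in an intron of loaf, 5361 bp upstream of Gr68a, a gustatory receptor gene (3L:11745714-11746173, signal 144.4, ranks 7390 and 8453), with no IDR summit within 39589 bp. The next lay in an intron of hth, which encodes the homeodomain partner of Hox proteins, 47300 bp downstream of its start (3R:10566746-10567205). The others were in an intron of Con, in intergenic DNA 7509 bp upstream of hry, and in intergenic DNA 16909 bp upstream of CG5023. The last stood 100817 bp from any IDR summit. Among gene bodies, bun (14 regions in 91072 bp) and kirre (14 in 394149 bp) held the most, then Ten-a with 13 and fz2 and rdx with 12 each. All 14 regions of kirre, a cell adhesion gene of muscle founder cells, and all 13 of Ten-a, a teneurin, were separate regions. Long genes can hold more regions by length alone: the density ran from 3.55 per 100 kb in kirre to 18.5 in rdx.

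Base composition at the summit separated the sets in a graded way. Mean GC content over 101 bp was 34.8% in IDR peaks, 37.5% in separate regions and 41.2% in regions ranked below 15000, while the flanks 500 bp away had 43.2%, 42.1% and 41.4%. Separate regions thus dipped by 4.53 points below their flanks, IDR peaks by 8.39 and lower ranks by 0.252. Adjacent regions had 40.9% at the summit and 42.5% in the flanks. Their lowest mean GC, 33.89%, was not at the summit but 150 bp to the side of lower coordinates. Most of their IDR summits lie on that side but farther out, at a median distance of 204 bp. Single regions varied widely: the SD between separate regions was 9.86 points, and 63.6% of them had less GC at the summit than in the flanks.

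**Figure D5:**
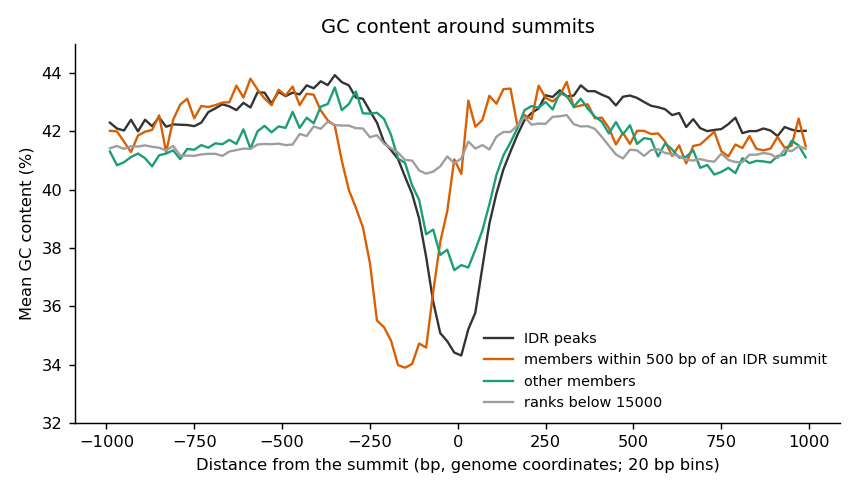
Mean GC content in 20 bp bins around the summit, in genome coordinates, for IDR peaks, adjacent regions, separate regions and regions ranked below 15000. Separate regions have a centred dip that is shallower than that of the IDR peaks, and adjacent regions have theirs about 150 bp to the left.

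Motif words were looked for in the 101 bp centred on the summit, on either strand. Of 26 motifs, 9 (34.6%) differed in share between the weaker regions and the IDR peaks (adjusted p under 0.05 over the 26, Fisher's exact test). Lower in the weaker regions were the TATA box TATAAA (16.6% against 22.1%, adjusted p = 1.24e-11, Fisher's exact test), the homeodomain word TAATTA (7.43% against 9.81%), the DRE TATCGATA (0.897% against 1.46%), CTCF AGNTGGCGC (0.69% against 1.18%) and motif 7 CANCNCTA (3.01% against 3.88%). Higher were the CA repeat CACACACA (2.39% against 1.46%), the Pleiohomeotic core GCCAT (16.1% against 13.7%), the tinman word CAAGTG (7.18% against 5.48%) and GAGAG, the GAGA factor core (11.9% against 10.4%). TATAAA and the homeodomain word hold no G or C, and the weaker regions had a higher mean GC content at the summit (38.2% against 34.8%); its part in these differences was not tested. The 4 words that were higher reached or exceeded these shares in the flanks of the weaker regions, with 3.88%, 19.3%, 6.83% and 13.1%, except the tinman word. Without the adjacent regions 4 of the 26 passed, and against the IDR peaks of lower signal 1, the TATA box. Adjacent and separate regions held the CA repeat in 4.38% and 1.93%, and GAGAG in 13.4% and 11.6%. For GCCAT the shares were 16% and 16.2%, and for CAAGTG 6.82% and 7.26%. Among the lower words, TATAAA had 14.9% and 17%, TAATTA 6.7% and 7.6%, and the DRE 0.609% and 0.965%. CTCF had 0.609% and 0.709%, and motif 7 3.17% and 2.98%. Against rows of the same ranks that were not kept, 1 of 26 (3.85%) passed, the BEAF-32 word CGATA with 12.9% against 15.5% (adjusted p = 0.0457, Fisher's exact test), and it did not pass without the adjacent regions (adjusted p = 0.134).

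Strong regions that hold these elements are printed with the motif in capitals, on the plus strand. The DRE is shown at su(w[a]), a splicing regulator, 80 bp upstream of the start (X:1033186-1033286). The CTCF word is shown between the divergent RpS28a and Axn genes (3R:30022663-30022763), where the minus strand reads it. Motif 7 is shown at chm, the promoter printed above with its A and T runs. The M1BP word GGTCACACT is shown at rudhira (X:11816803-11816903), an adjacent region 205 bp from an IDR summit that holds it in 2 copies. The homeodomain word is shown in loaf, in the region nearest to Gr68a (3L:11745894-11745994), with 23.8% GC.
su(w[a]): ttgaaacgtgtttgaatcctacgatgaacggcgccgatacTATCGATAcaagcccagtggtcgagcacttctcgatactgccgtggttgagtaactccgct
RpS28a: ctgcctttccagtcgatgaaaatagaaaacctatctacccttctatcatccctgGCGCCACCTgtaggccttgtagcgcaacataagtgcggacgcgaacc
chm: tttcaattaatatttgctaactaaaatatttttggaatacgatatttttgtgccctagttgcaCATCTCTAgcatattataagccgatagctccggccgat
rudhira: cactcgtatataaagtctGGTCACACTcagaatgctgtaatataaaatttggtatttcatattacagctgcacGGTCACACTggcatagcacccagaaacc
Gr68a: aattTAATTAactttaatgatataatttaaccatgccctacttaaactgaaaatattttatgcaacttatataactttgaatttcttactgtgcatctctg

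Several motifs were centred on the weaker summits. The DRE was in 0.897% of summit windows, in 0.736% of windows 100 bp away and in 0.276% of windows 500 bp away. The M1BP word was in 0.506% at the summit and 0.127% at 500 bp, and CTCF in 0.69% and 0.299%. Motif 6, GTATNTTT, was in 5.36% and 3.07%, and the forkhead word TGTTTAC in 3.98% and 2.23%. The last 2 had shares in the IDR peaks of 5.02% and 4.03%, and the differences of 0.341 points (interval -0.471 to 1.19) and -0.0511 points (-0.764 to 0.699) did not pass. Mean GC content was 38.2% at the weaker summits and 42.2% in the flanks, and its part in the centring was not tested. Not all words were centred: the E-box CACGTG was in 0.989% of the weaker summit windows and in 1.4% at 500 bp. The word of Zelda, CAGGTAG, was in 0.46% and 0.656%. That of GATA factors, GATAAG, was somewhat more frequent at the summit, with 6.17% against 5.2% at 500 bp. The E-box, GATA and Zelda words gave adjusted p of 0.573, 0.368 and 0.971 against the IDR set (Fisher's exact test).

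The word GTGACGAA, which earlier results on these data had named, was in 54 of 4346 weaker summit windows (1.24%). It was in 0.265% of windows 100 bp away, in 0.46% at 200 bp and in 0.0805% at 500 bp. The IDR peaks had 1.69% at the summit (adjusted p = 0.126 for the difference, Fisher's exact test) and lower ranks 0.367%. The sister word GTAACGAA was in 0.598% of the weaker summit windows, in 0.219% at 500 bp and in 0.988% of IDR peaks (adjusted p = 0.069, Fisher's exact test). In the 2 replicates' own lists both words were lower at the weaker ranks than at the highest. The differences in replicates 1 and 3 were -0.664 and -0.72 points for GTGACGAA, and -0.44 and -0.354 points for GTAACGAA. The motifs were chosen with earlier results of these data known, and both lists come from the pooled replicates. The single lists are thus no independent support for a difference. GTGACGAA was in 52 of 3525 separate regions (1.48%, 1.13 to 1.93) and in 2 of 821 adjacent regions (0.244%, 0.0668 to 0.884).

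Either word was in 76 weaker regions, 4 of which held both. Of these, 14 (18.4%, 11.3 to 28.6) were at promoters, 38 (50%, 39 to 61) in introns and 19 (25%, 16.6 to 35.8) between genes, beside 28.9%, 45.4% and 20.5% of all weaker regions, with no test of the difference. Of 204 IDR peaks with either word, 67 (32.8%) were at promoters. A set of 6 strong regions with GTGACGAA is set out here on the strand that reads the word, with 15 bases to each side, to show what surrounds it. They lie in an intron of sick (2L:19899592-19899629, plus), between genes near stas (X:17616998-17617035, minus), at the promoter of CG10365 (3R:23727932-23727969, minus), in an intron near Lmpt (3L:16888113-16888150, plus), between genes near GCS2alpha (X:21595538-21595575, plus) and in an intron near goe (X:16750190-16750227, plus).
sick: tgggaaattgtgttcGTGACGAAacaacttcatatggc
stas: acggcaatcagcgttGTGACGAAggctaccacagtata
CG10365: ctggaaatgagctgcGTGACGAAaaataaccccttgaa
Lmpt: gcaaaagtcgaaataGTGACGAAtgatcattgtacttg
GCS2alpha: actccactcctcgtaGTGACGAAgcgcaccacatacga
goe: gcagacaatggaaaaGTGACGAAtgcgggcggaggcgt
Over all 54 weaker regions with the word, the base just before it was A in 35 (64.8%) and the base before that T in 34 (63.0%), against 65.4% and 74.6% in the 130 IDR peaks. After the word, the 4th to 6th bases were most often C (51.9%), A (55.6%) and C (48.1%), and the same letters led in the IDR peaks with 50%, 46.2% and 54.6%.

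A selection of strong regions with GTAACGAA is printed in the same way. They are in an intron near SCaMC (3L:12411203-12411240, plus), between genes near CG11666 (X:20993850-20993887, plus) and between genes near Asator on chromosome 4 (4:494397-494434, minus).
SCaMC: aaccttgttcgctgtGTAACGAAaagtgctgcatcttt
CG11666: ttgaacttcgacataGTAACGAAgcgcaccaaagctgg
Asator: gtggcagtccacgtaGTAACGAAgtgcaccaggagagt
The printed regions near CG11666 (rank 8940) and Asator (rank 9195) are weaker than one near CG12206 (rank 8903), which is not printed. Over the 26 weaker regions with this word, the base just before it was A in 9 (34.6%) and the base before that T in 16 (61.5%), against 53.9% and 57.9% in the 76 IDR peaks. After the word, the 4th to 6th bases were most often A (26.9%), A (42.3%) and A (42.3%) in the weaker regions. In the IDR peaks they were most often C (38.2%), A (46.1%) and C (38.2%).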

How the data were processed

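Anti-GFP ChIP-seq lists of 2 replicates of whole embryos were analysed. The authors deposited, for dm3 and dm6, a list of 30000 regions for each replicate and for the pool, and an IDR set. Per the deposited provenance notes, the lists come from alignments together with a control file. No source used here names the caller, the IDR threshold or versions. The signal value is the authors' own; its definition is not stated, and it is not comparable between lists. The deposited −log10 q-value was used as given. Lists of dm6 were sorted by signal. Summits were placed on the BDGP6.54 annotation (18164 genes without transposons) in the order promoter, 5′ untranslated region, coding exon, 3′ untranslated region, non-coding exon, intron and intergenic, and sequence was read from the RefSeq copy of dm6. Shares carry Wilson 95% intervals, which cover counting error only; depth is unknown. Fisher's exact tests, two-sided, were adjusted by Benjamini-Hochberg over 7 classes or 26 motifs (scipy; methods tested on simulated data). Motifs can overlap: the DRE contains CGATA. Members, gene lists and motifs were chosen with earlier results of these data known. Named genes are those of the 10 strongest and 10 best-ranked regions, up to 4 per list, 5 far regions, 5 gene bodies and the range ends; the best-ranked separate regions, the split of rows by replicate list, the side of the IDR summit and the aligned words were added after the data were seen. Printed windows avoid 1 chromosome arm and windows with over 30 bases of untranslated region. Regions of 1 genome are not independent; p-values do not measure the spread between animals. Alternatives covered windows, overlap, list length, ranks, adjacent regions and single replicates.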

Additional observations from a re-analysis of the deposited data

How the results depend on the processing

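No paired analysis was possible because there is 1 group. Library depth is unknown, and the lists hold no control values.

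The promoter, upstream and divergent-gene differences kept direction and side of the threshold under each alternative run. The promoter difference from the IDR peaks ran from -8.42 points (IDR peaks of lower signal) to -17 (without adjacent regions). The number of regions was 1487 with the 10000 highest of each replicate list, 6853 with all 30000 and 7311 with no overlap rule. Classes that passed against the IDR peaks went from 5 to 3 with the 10000 highest. Against the rows not kept, the promoter difference of 0.445 points became -1.83 with a 200 bp window, -2.57 with a stricter overlap (0.5 of the region), 6.95 with the 10000 highest, -18.3 with all 30000, -13.7 in ranks 7690 to 11344, -2.27 without adjacent regions, 9.88 against rows of replicate 1 only and -5.94 against rows of replicate 3 only. The classes that passed there went from 0 to 2 (10000 highest), 4 (all 30000), 5 (ranks 7690 to 11344), 2 (replicate 1 only) and 2 (replicate 3 only). The X difference was 0.91 points with a 200 bp window, 1.59 with a 1000 bp window and 0.964 without adjacent regions. It was 1.54 points in ranks 7690 to 11344 and 1.47 with the stricter overlap, and ran from 1.44 to 2.8 in single replicate lists. The divergent-gene difference ran from 6.33 to 9.46 points in single lists, against 4.51. Genes reached without an IDR summit ran from 1341 to 1649 in single lists. Motifs that passed against the IDR peaks went from 9 to 4 at promoters, 4 without adjacent regions, 4 with best matches off IDR peaks and 1 against IDR peaks of lower signal; against rows not kept they went from 1 to 0 without adjacent regions. Differences that did not pass changed sign for non-coding exons (-0.071, TSSs of all genes), motif 6 (-0.274 at 100 bp; single lists -0.605 to 0.421), forkhead (0.176 at 100 bp, 0.344 at promoters; single lists -0.0519 to 0.0259), GTGACGAA (0.15, IDR peaks of lower signal) and M1BP (0.153 at promoters). The cause was not tested. The dm3 lists gave 4585 regions, 830 of them adjacent. The best-match, replicate-only and adjacent-gene alternatives were chosen after seeing the data.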
